A study of Mus musculus with 33 samples.

Results

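The receptors through which acetylcholine, serotonin, noradrenaline, dopamine, histamine and orexin act on cortical cells were followed in frontal cortex RNA from mice that slept freely, were kept awake, or slept again after being kept awake. The genes were taken by symbol from the table of 21565 genes: muscarinic (Chrm) and nicotinic (Chrna, Chrnb) acetylcholine receptors, serotonin receptors (Htr), adrenoceptors (Adra1, Adra2, Adrb), dopamine receptors (Drd), histamine receptors (Hrh) and orexin receptors (Hcrtr). The symbols matched 50 rows reported here, and the 34 rows with a mean of at least 1 CPM (1 read in every 1000000 counted) over the 33 libraries are described here. The symbol and CPM rule uses no difference between groups, but the receptors were chosen with earlier results of these data known. They hold 4 of 5 muscarinic, 5 of 13 nicotinic, 11 of 14 serotonin, 6 of 8 noradrenaline, 3 of 4 dopamine, 3 of 4 histamine and 2 of 2 orexin receptor rows. Chrnb3 (1.08 CPM) and Hcrtr1 (1.27) lay just inside the limit. Adrb3 (0.686 CPM) and Adra2b (0.673) lay just outside it, and Htr5b, Htr2b, Htr3b, Chrna1, Chrna2, Chrna3, Chrna6, Chrna9, Chrna10, Chrnb1, Chrnb4, Chrm5, Drd4 and Hrh4 were lower still.

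Male adult mice on a C57BL/6J background gave the libraries, all collected at ZT 6. WT mice were in control sleep (CS, free to sleep, n = 6), sleep deprived for 6 hr on a slow treadmill (SD, n = 7), or deprived for a shorter time that left 2 hr of recovery sleep before collection (RS, n = 7). Mef2c f/f mice carry loxP sites around an exon of the DNA-binding domain of the transcription factor MEF2C and no Cre (CS n = 4, SD n = 3). Mef2c-cKO mice carry the same floxed alleles with Camk2a-Cre, a transgene active in excitatory neurons of the forebrain (CS n = 3, SD n = 3). No group carried Cre without the floxed alleles, and the study's methods state that germline recombination was found in some Mef2c-cKO mice.

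These receptors receive signals from small groups of subcortical neurons whose axons spread over the whole cortex. Noradrenaline, serotonin, histamine and orexin neurons fire most in waking and are quiet in REM sleep, while acetylcholine release is high in waking and again in REM sleep. Most of the receptors couple to G proteins. Muscarinic M1 and M3, the alpha-1 adrenoceptors, Htr2 receptors, Hrh1 and the orexin receptors act mainly through Gq. Beta adrenoceptors, D1-like dopamine receptors, Hrh2, Htr4, Htr6 and Htr7 act through Gs. M2 and M4, the alpha-2 adrenoceptors, D2-like dopamine receptors, Hrh3, Htr1 and Htr5a act through Gi/o. The nicotinic receptors and Htr3a form ion channels.

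Totals ran from 18935045 to 249046089 reads per library, and WT libraries were mostly deeper than the others. CPM were divided by one scaling factor per library (0.716 to 1.14, lowest in WT CS replicate 2), and levels below are these rescaled CPM. Summed markers of the choroid plexus stood apart in WT CS replicate 1 (199 rescaled CPM) and Mef2c-cKO CS replicate 5 (327), and those of microglia in Mef2c-cKO CS replicate 8 (345, against 125 to 203 in the other 32 libraries). Mef2c itself lay between 1080 and 1406 rescaled CPM in the 7 Mef2c f/f libraries and between 957 and 1727 in the 6 Mef2c-cKO libraries. A count over the whole gene holds all exons and does not check the deletion of 1 exon. The labels do not say that each library is a separate mouse, so p-values measure only the spread between these samples, which may be technical.

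Per kilobase of exon, Chrm3 was the most abundant of the 34 receptor transcripts in WT CS, at 93.3 ± 12.3 rescaled CPM per kb (SD, n = 6). Htr1f followed at 52.2 ± 10.7, and its libraries overlapped with neither neighbour in the order. Htr2a stood at 16.4 ± 2.89, with Chrm1 (14.5), Chrm2 (13.8), Drd2 (12.2), Htr2c (11.98), Chrna7 (11.9), Chrm4 (8.27) and Hrh3 (8.14) behind it. From Htr2a downwards every neighbouring pair in this order overlapped in its libraries. The adrenoceptors began with Adra1a at 6.43 rescaled CPM per kb, the nicotinic subunits after Chrna7 with Chrna4 at 6.39, and orexin receptors with Hcrtr2 at 1.63. Drd5 (0.498), Hcrtr1 (0.346) and Chrnb3 (0.176) were the lowest. Drd2, Drd3 and Htr4 are also abundant in striatal medium spiny neurons, whose 10 markers (Adora2a, Penk, Pde10a and others) summed to 807 to 1707 rescaled CPM across WT CS libraries. Whether striatal tissue in the dissection contributed to those transcripts was not tested.

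**Figure D1:**
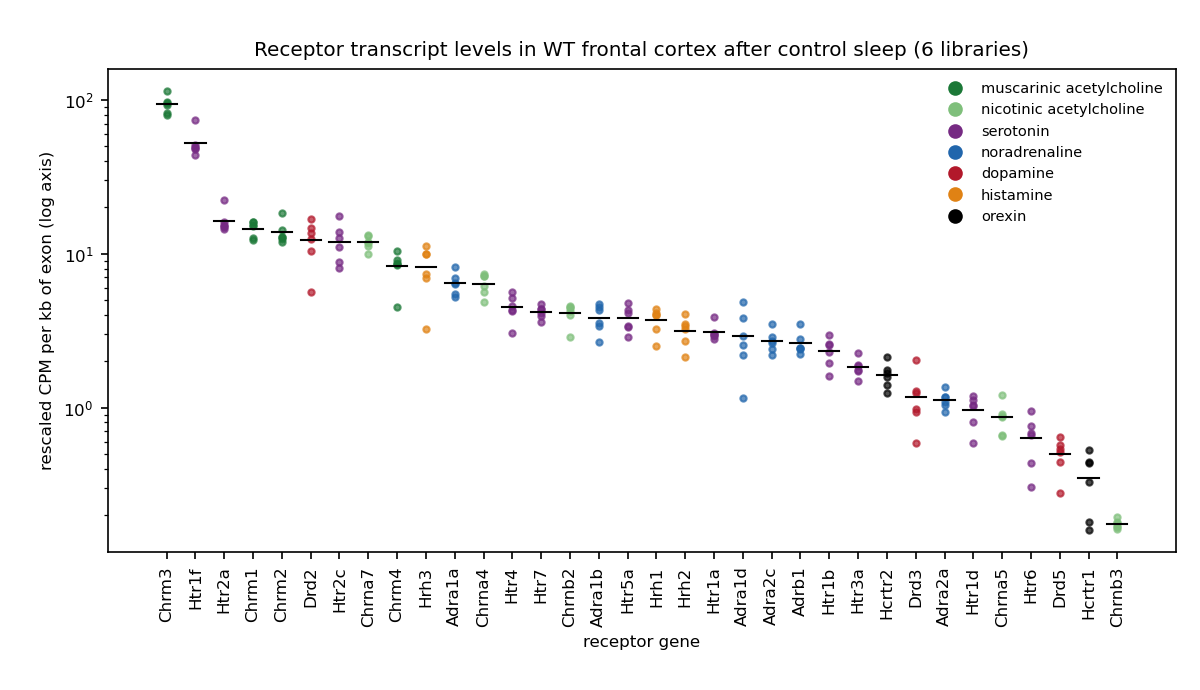
Rescaled CPM per kb of exon (log axis) of the 34 receptor genes in the 6 WT CS libraries, with points for libraries, bars for the mean and colours for the transmitter family. Chrm3 and Htr1f stand above all others, and from Htr2a to Chrnb3 neighbouring genes overlap.

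The comparison of WT CS with WT SD asks which receptor transcripts differ after 6 hr without sleep. Of 32 receptors that could be tested, 17 were called (limma, Benjamini-Hochberg adjusted p of at most 0.05 over all 12913 genes tested and a log2 fold change of at least 0.3 in size), 8 higher and 9 lower. Of all genes tested 24.6% were called higher and 20.5% lower, shares close to those of the receptors, and the median log2 fold change was -0.0042 for receptors and 0.038 for all genes. Receptor genes as a group were therefore called about as often as other genes. With CPM as deposited, without rescaling, 14 receptors were called higher and 4 lower, while the median of all genes moved to 0.30. Quantile normalization gave 5 higher and 11 lower. The changes below are relative to the typical gene of the library.

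Among acetylcholine receptors, the M3 receptor Chrm3 fell most. It lay between 497 and 714 rescaled CPM in WT CS (median 586) and between 224 and 386 in WT SD (median 280.5). The groups did not overlap, and the log2 fold change was -1.02 ± 0.13 (SE, adjusted p = 0.000388). Chrna7, the subunit of the alpha-7 nicotinic channel, went from 45.1 to 59.9 (median 53.4) in CS to 29.0 to 46.0 (median 34.5) in SD, with one SD library reaching the lowest CS library, and fell by 0.61 ± 0.11 on the log2 scale (adjusted p = 0.00132). Chrm2, the inhibitory M2 receptor, fell by 0.59 ± 0.14 (adjusted p = 0.00596) from a median of 77.3 to 51.6, and its highest SD library (82.2) lay inside the CS range of 71.6 to 112. Chrnb2, the common beta subunit of cortical nicotinic channels, rose by 0.32 ± 0.11 (adjusted p = 0.0231), a call that was lost without WT CS replicate 2 or WT SD replicate 8. Chrm1 (0.18, adjusted p = 0.072), Chrm4 (0.27, adjusted p = 0.219), Chrna4 (-0.067, adjusted p = 0.606) and Chrna5 (-0.049, adjusted p = 0.821) did not pass. Chrnb3, the lowest of the 34, missed the expression filter.

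The serotonin receptors divided. The inhibitory Htr1f ranged from 113 to 189 rescaled CPM in CS (median 126) and from 54.2 to 85.6 in SD (median 69.3), again with no overlap, and fell by 0.90 ± 0.13 (adjusted p = 0.000528). Htr2a, the excitatory receptor bound by serotonergic hallucinogens, lay at 81.4 to 124 in CS and 55.9 to 72.8 in SD and fell by 0.45 ± 0.10 (adjusted p = 0.00408). Those groups too were apart. Htr2c fell by 0.55 ± 0.17 (adjusted p = 0.018) and the inhibitory receptor Htr1a by 0.39 ± 0.12 (adjusted p = 0.018), both with overlapping groups. Htr1b, an inhibitory receptor of axon terminals, rose from a median of 11.5 (7.56 to 13.9) to 15.3 (13.1 to 19.7), by 0.55 ± 0.14 (adjusted p = 0.00689). Htr6, a Gs-coupled receptor near the detection limit, rose by 0.56 ± 0.16 (adjusted p = 0.013) from a median of 1.56 to 2.27. Htr3a, Htr4, Htr5a, Htr7 and Htr1d had adjusted p-values of 0.0744 to 0.402.

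Among adrenoceptors, Adra2a, the inhibitory alpha-2A receptor, rose without overlap of the groups. It was at 4.54 to 6.52 rescaled CPM in CS (median 5.43) and 7.11 to 10.7 in SD (median 9.36), a log2 fold change of 0.67 ± 0.12 (adjusted p = 0.00119). Adra2c, the alpha-2C receptor, rose by 0.95 ± 0.18 (adjusted p = 0.00163), from 7.58 to 12.06 (median 9.15) to 11.999 to 25.3 (median 19.6), with the highest CS library just above the lowest SD library. Adra1d, a Gq-coupled alpha-1 receptor, rose by 0.93 ± 0.24 (adjusted p = 0.00833) from a median of 5.18 to 9.15. Adra1a lay on the fold threshold (-0.29 ± 0.12, adjusted p = 0.0475) and was not called. Adra1b (0.13, adjusted p = 0.396) and Adrb1 (0.15, adjusted p = 0.299), the main beta receptor of cortex, did not pass either.

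Histamine and orexin receptors moved in both directions. Hrh3, the inhibitory autoreceptor of histamine neurons that is also made in cortex, rose by 0.74 ± 0.24 (adjusted p = 0.0222), with CS libraries from 10.2 to 35.4 and SD libraries from 27.0 to 53.1. Hrh2 fell by 0.38 ± 0.15 (adjusted p = 0.0448), the weakest of the calls, and was lost when any one of 9 libraries was left out. Hrh1 had a log2 fold change of 0.041 (adjusted p = 0.824). Hcrtr2 fell by 0.47 ± 0.12 (adjusted p = 0.00803), from 7.60 to 13.1 (median 10.02) to 6.16 to 8.77 (median 6.87). Hcrtr1, near 1 CPM, rose by 0.57 ± 0.18 (adjusted p = 0.0195) from a median of 0.993 to 1.40. Drd2 (0.20, adjusted p = 0.54) and Drd5 (0.24, adjusted p = 0.178) did not pass, and Drd3 missed the filter. Htr6, Hcrtr1 and Drd5 entered the test only through the SD libraries, so a rise was the only large change the filter let them show.

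Over the receptors, 4 had groups that did not overlap (Chrm3, Htr1f, Htr2a and Adra2a), against 15.1% of all genes tested. In bulk cortex a lower transcript level can come from less RNA per cell or from fewer of the cells that hold it, and the data cannot tell these apart. Summed markers of the meninges were higher in SD (39.7 ± 23.6 in CS, 87.3 ± 14.5 in SD, 5 of 8 genes called higher), and markers of excitatory neurons were lower (1664 ± 71.4 and 1458 ± 43.2, 4 of 10 called lower). Summed markers of the choroid plexus, where Htr2c is also abundant, ran from 16.8 to 199 in CS and from 11.2 to 17.6 in SD. Their part in the receptor changes, as that of the other markers, was not tested.

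**Figure D2:**
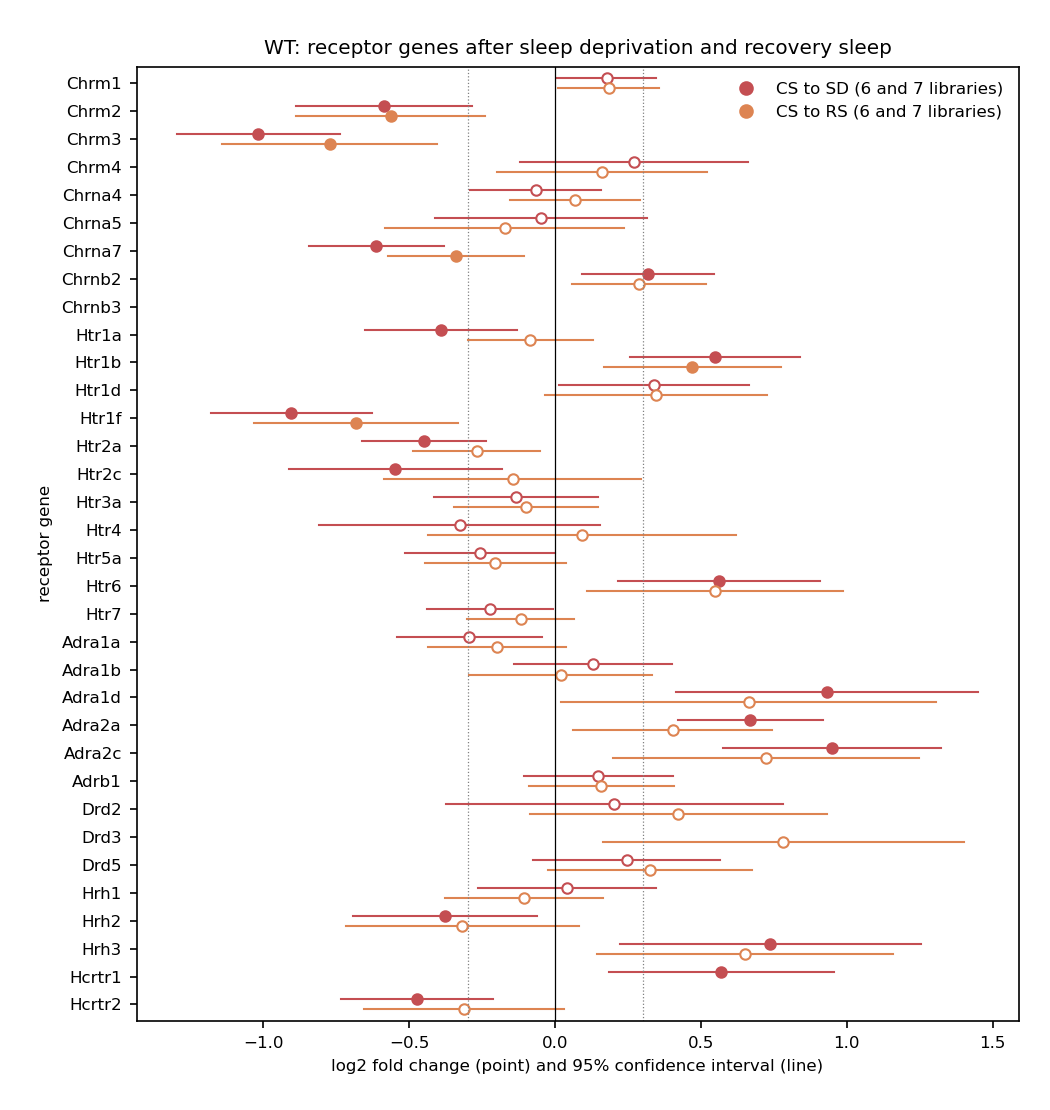
Log2 fold change (points) and 95% confidence interval (lines) of each tested receptor from WT CS to SD (red) and to RS (orange), grouped by transmitter family, with dotted lines at the fold threshold and filled points for called genes. Chrm3 and Htr1f have the largest falls in both comparisons, and Adra2c has the largest rise in SD, with Adra1d next to it.

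The GC content of the transcripts followed the direction of the calls. The 8 receptors called higher in SD had transcripts of 45.2 to 65.5% GC (median 60.4%) and the 9 called lower of 39.4 to 50.2% (median 42.1%). Across the 32 tested receptors the log2 fold change and GC content had a Spearman rho of 0.799, and across 12444 genes 0.721. The genes share their libraries and are not independent replicates, so no p is given. When the trend with GC content and transcript length was fitted over all genes and removed, rho was 0.253, 9 receptors were called, and 6 of the first 17 kept their call. Those were Chrm3 (-1.07, adjusted p = 0.000173), Htr1f (-0.54, adjusted p = 0.00399), Chrna7 (-0.43, adjusted p = 0.0263), Hrh2 (-0.40), Htr1a (-0.38) and Htr1b (0.75, adjusted p = 0.002). Chrm3 had the same size of change with and without the correction.

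The receptors that lost their call were Adra1d, Adra2a, Adra2c, Chrm2, Chrnb2, Hcrtr1, Hcrtr2, Hrh3, Htr2a, Htr2c and Htr6. Adra2c moved from 0.95 to 0.18, Adra1d from 0.93 to 0.14, Hrh3 from 0.74 to 0.08 and Hcrtr1 from 0.57 to 0.05, and Htr6 changed sign. Adra1a (-0.34), Chrna4 (-0.40) and Htr3a (-0.40) were called lower after the correction only. Whether the trend with GC content arose in the libraries or in the cells was not tested, and the rises of the alpha-2 adrenoceptors, Hrh3 and Hcrtr1 are values that move with it.

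**Figure D3:**
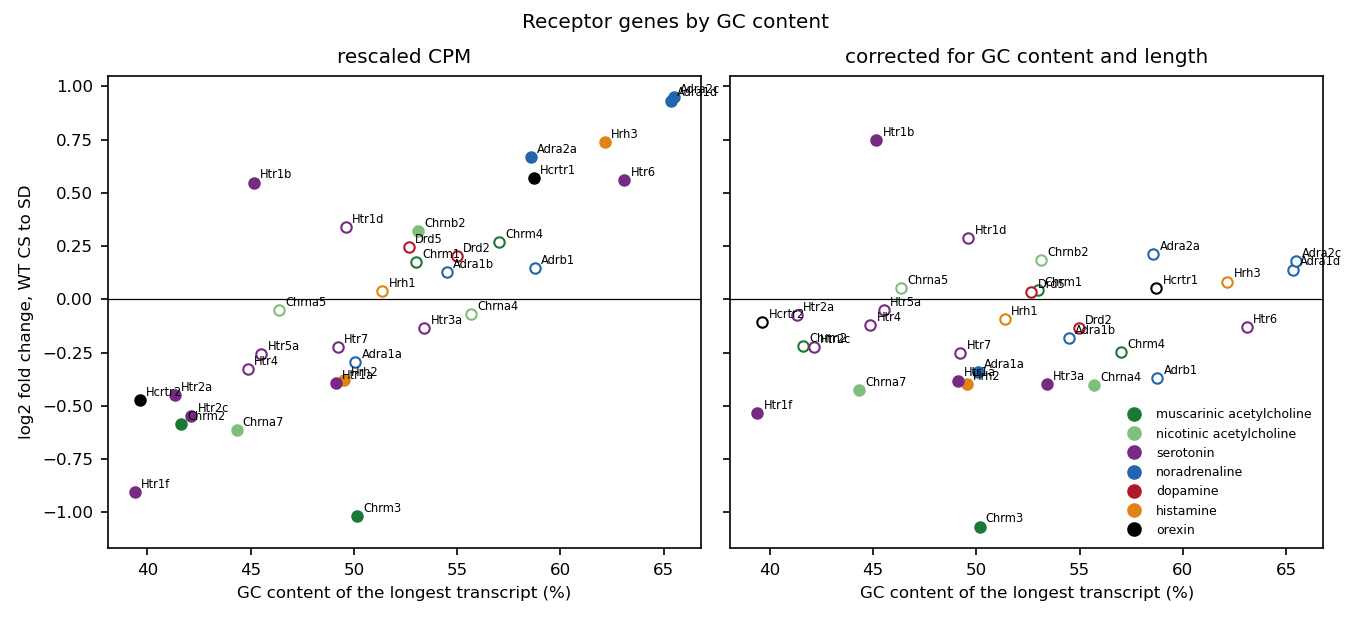
Log2 fold change from WT CS to SD against the GC content of the longest transcript for the 32 tested receptors, from rescaled CPM (left) and after correction for GC content and length (right), with colours for family and filled points for called genes. The slope at the left (Spearman rho 0.799) is mostly gone at the right (0.253), where Chrm3 stays lowest and Htr1b highest.

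The comparison of WT CS with WT RS asks which receptor transcripts differ from control sleep after recovery sleep. The largest falls were those of Chrm3 and Htr1f. From WT CS to WT RS, 5 of 32 tested receptors were called, 1 higher and 4 lower, where 9.28% of all 12752 genes tested were higher and 8.22% lower. The difference from the 17 called in SD was not tested, and with the replicate number as a block 4 receptors were called in SD and 10 in RS. WT CS enters both comparisons, so the values are given side by side only. Chrm3 was at 228 to 534 rescaled CPM in RS (median 339), with 1 RS library above the lowest CS library, and fell by 0.77 ± 0.17 (adjusted p = 0.0329). Htr1f was at 58.9 to 121 (median 78.8) and fell by 0.68 ± 0.16 (adjusted p = 0.0334). Chrm2 fell by 0.56 ± 0.15 (adjusted p = 0.0362) and Chrna7 by 0.34 ± 0.11 (adjusted p = 0.0462), while Htr1b rose by 0.47 ± 0.14 (adjusted p = 0.0413). No tested receptor had RS libraries fully apart from CS libraries.

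Several receptors called in SD had similar values in RS that missed the threshold. Adra2c had a log2 fold change of 0.72 (adjusted p = 0.051), Hrh3 of 0.65 (adjusted p = 0.0586) and Htr6 of 0.55 (adjusted p = 0.0623). Htr6 passed the filter in one of the groups only. The dopamine receptor Drd3, tested here through the RS libraries, had 0.78 (adjusted p = 0.0606), with 1 RS library at 9.91 and the others down to 1.89. The calls were close to the threshold. None of the 5 was called when any one of WT RS replicates 3, 4, 5, 6 or 12 or WT CS replicates 1, 2 or 3 was left out, whereas 11 were called without WT RS replicate 1 and 8 without WT RS replicate 2. The same held for all genes, of which 0 to 223 were called in the first 8 of these fits and 3740 and 3108 in the last pair, against 2232 with all libraries. After correction for GC content and length Chrm3 (-0.80), Htr1f (-0.41) and Htr1b (0.63) were called. With CPM as deposited 9 receptors were called, 6 higher and 3 lower, and with quantile normalization 4, all lower.

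Directly from WT SD to WT RS, limma called 0 of 33 tested receptors (0.0232% of all genes), as did edgeR and DESeq2, and 5 had an unadjusted p under 0.05. Chrm3 had a log2 difference of 0.25 with a 95% confidence interval of -0.12 to 0.62, and Htr1f of 0.22 (-0.09 to 0.54). Those intervals hold 0 as well as most of the size of the fall from CS to SD, and the RS mice had been deprived for a shorter time than the SD mice. Htr2c (0.40), Htr1a (0.31), Chrna7 (0.27), Htr2a (0.18) and Drd3 (0.64) were the 5, with adjusted p-values of 0.695 to 0.878.

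The sequences before the transcription starts of the 5 receptors called in both WT comparisons are shown because both comparisons called them, although these share the WT CS libraries and the RS calls were lost without any one of 8 libraries. They are from RefSeq, build GRCm38.p6, and end at the base before the start, cut at the earlier of the RefSeq and GENCODE starts. Each is written 5′ to 3′ on the gene's strand, with capitals for a GC box (GGGCGG or CCGCCC) or an E-box (CACGTG).
Chrm2, chr6:36387834-36388083, strand +: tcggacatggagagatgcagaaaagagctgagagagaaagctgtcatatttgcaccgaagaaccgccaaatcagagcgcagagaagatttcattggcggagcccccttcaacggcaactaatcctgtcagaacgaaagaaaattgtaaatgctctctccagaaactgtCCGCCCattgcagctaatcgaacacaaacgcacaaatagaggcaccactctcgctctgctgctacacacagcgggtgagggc
Chrm3, chr13:10360848-10361053, strand -: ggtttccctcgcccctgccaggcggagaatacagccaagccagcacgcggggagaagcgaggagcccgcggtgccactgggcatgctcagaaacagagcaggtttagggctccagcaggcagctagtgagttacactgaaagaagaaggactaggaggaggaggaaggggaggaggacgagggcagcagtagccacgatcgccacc
Chrna7, chr7:63212570-63212776, strand -: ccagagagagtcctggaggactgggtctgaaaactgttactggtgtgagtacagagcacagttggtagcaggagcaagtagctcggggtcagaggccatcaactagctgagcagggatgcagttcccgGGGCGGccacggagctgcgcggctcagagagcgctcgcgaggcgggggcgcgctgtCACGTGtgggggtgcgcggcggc
Htr1b, chr9:81633833-81634082, strand -: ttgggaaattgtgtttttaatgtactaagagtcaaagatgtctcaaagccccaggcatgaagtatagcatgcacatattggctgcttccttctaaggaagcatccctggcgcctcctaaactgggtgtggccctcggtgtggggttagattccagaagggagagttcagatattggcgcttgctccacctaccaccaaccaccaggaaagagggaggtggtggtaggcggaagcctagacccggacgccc
Htr1f, chr16:65105855-65106034, strand -: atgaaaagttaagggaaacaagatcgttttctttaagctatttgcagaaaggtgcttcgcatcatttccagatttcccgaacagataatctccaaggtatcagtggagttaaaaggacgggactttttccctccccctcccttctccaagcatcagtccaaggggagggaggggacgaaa
Of these, Chrm2 and Chrna7 hold a GC box and Chrna7 also an E-box. A window of 250 bases before a RefSeq start was found for 28 of the 34 receptors, 38 windows in all. A GC box stood in 17 receptors (32.7% of all 32851 windows), an E-box in Adra2a, Adra2c and Chrna7 (6.02%), and an AP-1 motif (TGACTCA or TGAGTCA) in Adra1b and Hrh1 (4.46%). The cAMP response element TGACGTCA (1.55% of all windows) and the MEF2 motif (2.92%) were in none of the receptor windows. Both strands were searched. The shares count windows, while some receptors have several windows, so the receptor counts and the shares are in unlike units. These windows were not cut at the GENCODE start, and the E-boxes of Adra2a and Adra2c and the AP-1 motif of Hrh1 lie after that start. Matches of different motifs shared no bases, while neighbouring GC boxes did in Chrm4, Hrh3 and Htr6. A match is a description of these letters only.

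In Mef2c f/f mice the comparison of CS with SD asks whether receptor transcripts differ after deprivation in floxed mice without Cre. Of 32 tested receptors limma called 0 (0.0403% of all genes), 9 had an unadjusted p under 0.05, edgeR called 0 and DESeq2 called 2. Groups did not overlap for 6 receptors, Chrm3, Chrna7, Htr1b, Htr7, Hcrtr2 and Chrnb3, where 17.4% of all genes did not. Hcrtr2 was at 7.21, 5.27, 6.21 and 6.40 rescaled CPM in CS and at 10.5, 9.20 and 8.89 in SD, a log2 difference of 0.57 ± 0.12 (adjusted p = 0.103). Htr1b was at 11.4, 8.47, 9.02 and 9.11 in CS and 15.5, 17.0 and 12.1 in SD, a difference of 0.61 ± 0.14 (adjusted p = 0.108). Without Mef2c f/f CS replicate 1 these 2 receptors were called. Summed markers of oligodendrocytes (1704 to 2043 rescaled CPM in CS, 2279 to 2636 in SD), astrocytes (4002 to 4317 and 4387 to 4702) and excitatory neurons (1400 to 1478 and 1513 to 1635) were apart too, with 0 of their 5, 6 and 10 genes called. Their part in the receptor values was not tested.

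Chrm3 was at 375, 414, 486 and 395 rescaled CPM in f/f CS and at 346, 332 and 362 in f/f SD. All SD libraries were lower, and the log2 difference was -0.26 ± 0.10 (adjusted p = 0.227). Htr1f differed by -0.058, with a 95% confidence interval of -0.37 to 0.26. Chrna7 differed by -0.32 (adjusted p = 0.237), Htr7 by 0.31 (adjusted p = 0.187) and Chrnb3 by 0.45 (adjusted p = 0.218).

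In Mef2c-cKO mice 0 of 32 tested receptors were called from CS to SD by limma (0.0234% of all genes), edgeR and DESeq2, and 1 had an unadjusted p under 0.05. That was Adra2c, at 10.4, 12.5 and 8.32 rescaled CPM in CS and 13.8, 18.3 and 15.4 in SD, a log2 difference of 0.59 ± 0.17 (adjusted p = 0.998). Adra2c, Htr2a and Hrh2 had groups that did not overlap, where 9.05% of all genes did not. Chrm3 was at 157, 228 and 231 in CS and 239, 130.1 and 218 in SD, overlapping fully, with a difference of -0.097 and an interval of -0.69 to 0.50. That interval reaches most of the fall seen in WT.

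The difference between the SD responses of Mef2c-cKO and Mef2c f/f mice was tested as an interaction. It was called for 0 of 33 receptors by limma (0.00778% of all genes), edgeR and DESeq2, and 0 had an unadjusted p under 0.05. For Chrm3 the difference was 0.16 with a 95% confidence interval of -0.43 to 0.75, and for Hcrtr2 -0.31 (-0.69 to 0.08). With 3 or 4 libraries a group these intervals are wide.

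Between WT and Mef2c f/f mice the SD response differed for 7 of 33 receptors (adjusted p of at most 0.05, 15.1% of all 13106 genes). The responses of Chrm3 (f/f minus WT 0.76, adjusted p = 0.0276) and Htr1f (0.85, adjusted p = 0.0257) were less negative in f/f mice than in WT. That of Htr2a differed by 0.61 (adjusted p = 0.0256), from a fall in WT to a log2 difference of 0.16 in f/f (adjusted p = 0.412). Adra2c had a smaller response in f/f (-0.89, adjusted p = 0.0497). Hcrtr2, which fell in WT, had the largest of the 7 differences (1.05, adjusted p = 0.0103), with Chrnb3 next (0.96, adjusted p = 0.00992), and Htr7 had the smallest (0.53, adjusted p = 0.0353). Chrnb3 lay near 1 CPM and passed the filter only through the f/f groups, where it was higher than in WT. Across the 33 receptors these differences had a Spearman rho of -0.820 with GC content, and -0.077 once the trend with GC content and length was removed. After that correction Chrm3 (0.86, adjusted p = 0.0263), Chrnb3 (0.76, adjusted p = 0.033) and Htr7 (0.59, adjusted p = 0.041) were called, Hcrtr2 was at 0.56 (adjusted p = 0.0519), and Htr1f, Htr2a and Adra2c were at 0.34, 0.16 and -0.06. With CPM as deposited 5 responses were called higher and 3 lower in f/f than in WT, and with quantile normalization 5 and 0. Leaving out Mef2c f/f CS replicate 2 or 4, or f/f SD replicate 1 or 3, left 2 calls each, and leaving out f/f SD replicate 2 left 4. WT and floxed libraries also differ in depth and in the share of reads that the listed genes hold (925580 to 985958 CPM in WT, 1000000 in the others), so genotype and library series cannot be told apart.

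**Figure D4:**
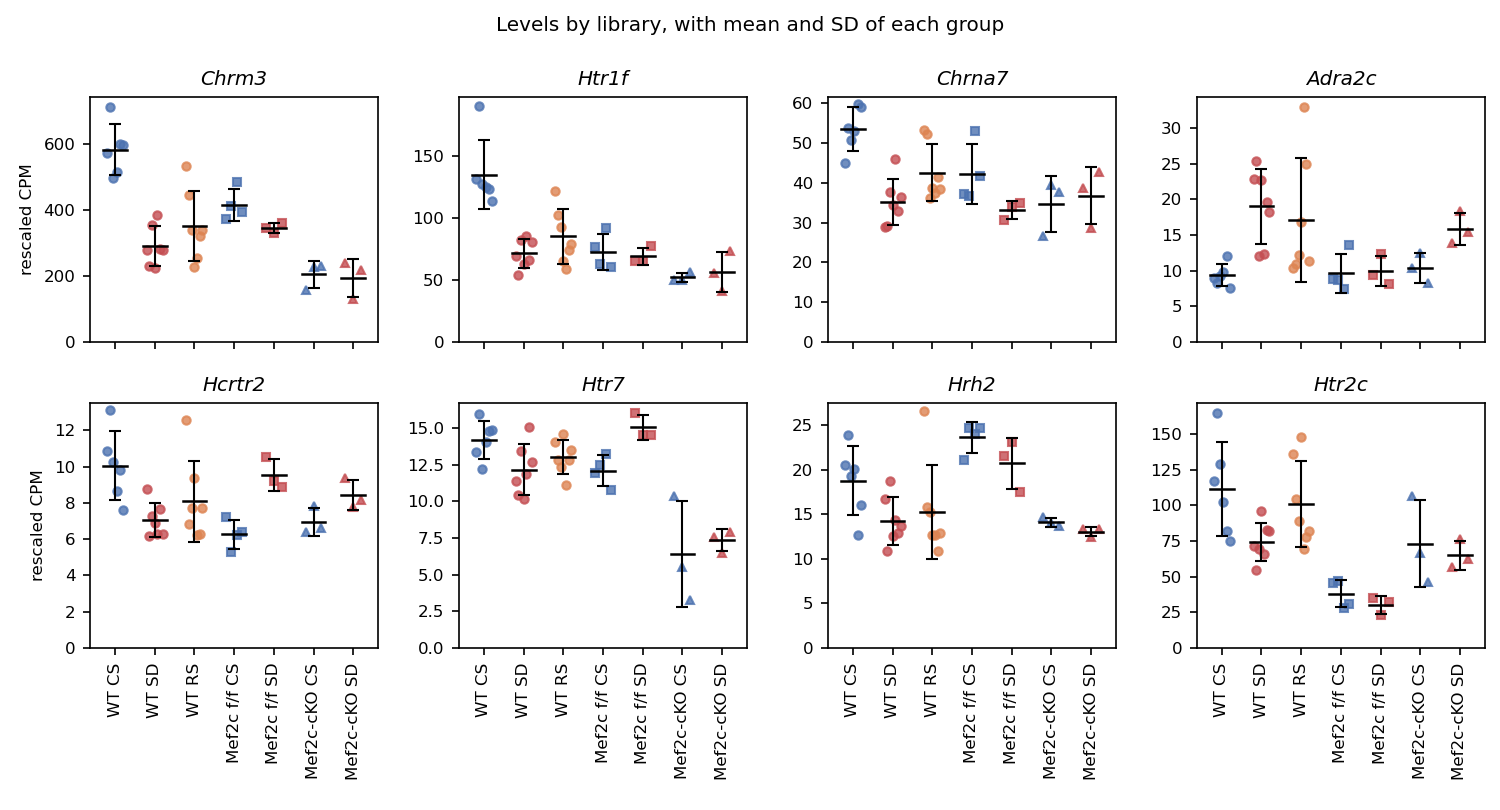
Rescaled CPM of 8 receptors in every library (points), with the mean and SD of each group (black), circles for WT, squares for Mef2c f/f and triangles for Mef2c-cKO, blue for CS, red for SD and orange for RS. Chrm3 falls from WT CS to SD and is lower in Mef2c-cKO than in Mef2c f/f in both sleep states, and Hcrtr2 is lower in WT SD but higher in all 3 f/f SD libraries than in f/f CS.

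The comparison of Mef2c f/f with Mef2c-cKO mice asks which receptor transcripts differ between floxed mice without and with Camk2a-Cre. A heat map legend of the study reports germline recombination in 2 of the 3 Mef2c-cKO CS samples. The groups may therefore also differ by an allele lost in all cells, and its part was not tested. In CS, 3 of 33 tested receptors were called, all lower in Mef2c-cKO, where 4.5% of all 12681 genes tested were lower and 3.17% higher. Chrm3 was at 375, 414, 486 and 395 rescaled CPM in f/f and at 157, 228 and 231 in Mef2c-cKO, with a log2 fold change of -1.04 ± 0.15 (adjusted p = 0.00793). Hrh2, the Gs-coupled histamine receptor, was at 21.1, 24.7, 24.0 and 24.7 in f/f and at 14.7, 14.0 and 13.7 in Mef2c-cKO, a fold change of -0.72 ± 0.10 (adjusted p = 0.00573). Both pairs of groups lay apart. Hrh1, the Gq-coupled histamine receptor, was at 17.7, 19.97, 21.6 and 21.2 against 12.2, 14.0 and 14.9, and fell by 0.54 ± 0.11 (adjusted p = 0.0278), a call lost without Mef2c-cKO CS replicate 5 or 7 or f/f CS replicate 2, 3 or 4.

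Groups did not overlap for 11 receptors in CS, where 26.9% of all genes did not. Those not called were Htr7 (-0.999, adjusted p = 0.0701), Htr1f (-0.46, adjusted p = 0.0808), Adrb1 (-0.45, adjusted p = 0.066), Htr2a (-0.40, adjusted p = 0.051), Htr1b (0.62, adjusted p = 0.053), Adra2a (0.56, adjusted p = 0.113), Drd5 (0.55, adjusted p = 0.133) and Htr3a (0.46, adjusted p = 0.114). Without Mef2c-cKO CS replicate 8, whose microglial markers (345) and astrocyte markers (5504) lay above the other floxed CS libraries, the 3 calls remained and Htr2c and Drd3 joined them. Drd3 entered that fit only because its lowest Mef2c-cKO CS library was left out. Without f/f CS replicate 1, 5 receptors were called. Of 5 microglial markers 0 were called in CS, and of 6 astrocyte markers 1 was called higher. Their part in the receptor differences was not tested. The number called ranged from 3 to 18 over the alternatives that kept all libraries. With CPM as deposited the median of all genes moved from 0.032 to 0.13, the 3 receptors stayed called and 1 other was called higher.

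In SD, 11 of 33 tested receptors were called between the genotypes, 4 higher and 7 lower in Mef2c-cKO, where 9.1% of all 12774 genes were higher and 5.99% lower. Htr7, a Gs-coupled serotonin receptor, was at 16.0, 14.5 and 14.6 rescaled CPM in f/f and at 7.60, 6.51 and 7.95 in Mef2c-cKO, a log2 fold change of -0.99 ± 0.10 (adjusted p = 0.00102). In CS the Mef2c-cKO libraries were spread over 10.4, 5.54 and 3.27, against 10.8 to 13.2 in f/f. Chrm3 was at 346, 332 and 362 against 239, 130.1 and 218, a fold change of -0.87 ± 0.20 (adjusted p = 0.0211). Hrh2 was at 21.5, 23.1 and 17.5 against 13.3, 12.5 and 13.3, a fold change of -0.64 ± 0.11 (adjusted p = 0.00771). Chrm3 and Hrh2 were called lower in Mef2c-cKO in both sleep states, with separate libraries in each. In SD the Chrm3 call was lost without any one of the f/f replicates 1, 2 and 3 (-0.84 to -0.90, adjusted p = 0.058 to 0.0839), and the Hrh2 call with all 7 groups in one fit (-0.64, adjusted p = 0.0837).

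The other receptors lower in Mef2c-cKO SD were a pair of adrenoceptors, the M1 receptor and a nicotinic subunit. Adra1b fell by 0.61 ± 0.12 (adjusted p = 0.0143), from 15.5, 20.9 and 17.8 to 11.9, 12.5 and 10.4. Adrb1, the main cortical beta receptor, fell by 0.55 ± 0.11 (adjusted p = 0.0149), from 9.88, 9.50 and 8.23 to 6.22, 6.63 and 5.56. Chrm1, the M1 receptor of pyramidal neurons, fell by 0.36 ± 0.07 (adjusted p = 0.016), from 108, 112 and 103 to 89.2, 76.5 and 86.0, but missed the fold threshold with CPM as deposited (-0.28). All 3 pairs of groups lay apart, as did those of 40.3% of all genes. The Adra1b call was lost without f/f SD replicate 3 and with all 7 groups in one fit. That of Adrb1 was lost without f/f SD replicate 1 or 2. That of Chrm1 was lost without f/f SD replicate 1 or 2 or Mef2c-cKO SD replicate 6. Chrnb3 fell by 0.99 ± 0.17 (adjusted p = 0.00752), from 1.84, 2.90 and 2.25 to 0.889, 0.952 and 0.875, and passed the filter only through f/f SD.

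The receptors higher in Mef2c-cKO SD were Htr2c, Adra2c, Drd5 and Htr3a. Htr2c, a Gq-coupled serotonin receptor, was at 35.01, 23.4 and 32.1 in f/f and at 56.5, 76.2 and 62.6 in Mef2c-cKO, a log2 fold change of 1.11 ± 0.16 (adjusted p = 0.00402). In CS it was at 45.7, 46.7, 28.4 and 31.2 in f/f and at 107, 66.4 and 46.4 in Mef2c-cKO (0.89, adjusted p = 0.0791). Htr2c is also abundant in the choroid plexus, and the Mef2c-cKO CS replicate with 107 is the one where choroid plexus markers summed to 327, while WT CS libraries reached 165. In SD those 8 markers summed to 6.54 to 10.1 in f/f and 10.6 to 25.1 in Mef2c-cKO, and 3 of the 4 tested were called higher. Ttr, the defining marker, was at 3.86 ± 1.92 in f/f SD and 5.65 ± 4.07 in Mef2c-cKO SD. Its part in the Htr2c difference was not tested.

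Adra2c rose by 0.65 ± 0.16 (adjusted p = 0.0275) and Drd5, a D1-like dopamine receptor, by 0.65 ± 0.14 (adjusted p = 0.0159). Htr3a, the serotonin-gated channel of a class of cortical interneurons, rose by 0.51 ± 0.13 (adjusted p = 0.0348). Each had separate groups, as had 40.3% of all genes. The Htr3a call was lost without Mef2c-cKO SD replicate 5 or 7 or any one f/f SD replicate. That of Adra2c was lost without Mef2c-cKO SD replicate 7 or f/f SD replicate 1 or 3, and that of Drd5 without f/f SD replicate 1 or 3. Each was also lost with quantile normalization and with all 7 groups in one fit. After correction for GC content and length Adra2c (0.42, adjusted p = 0.0544) and Htr3a (0.37, adjusted p = 0.0853) were no longer called, and the other 9 were. Markers of interneurons summed to 1076 ± 64.3 in f/f SD and 1501 ± 71.7 in Mef2c-cKO SD, with 7 of 13 genes called higher and 3 lower. Markers of excitatory neurons summed to 1561 ± 65.3 and 1390 ± 38.7, with 4 of 10 called lower. Their part in the receptor differences was not tested.

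Groups in SD did not overlap for 15 receptors, where 40.3% of all genes did not. With CPM as deposited 6 receptors were called higher and 6 lower in SD, and with quantile normalization 1 higher and 8 lower. Leaving out Mef2c f/f SD replicate 1 left 5 calls, and leaving out f/f SD replicate 3 left 6. The receptors of the orexin system, Hcrtr1 (-0.15, adjusted p = 0.646) and Hcrtr2 (-0.17, adjusted p = 0.314), and Htr1f (-0.32, adjusted p = 0.257) did not pass in SD. Drd2 had a log2 fold change of 0.80 (adjusted p = 0.0756), and striatal markers summed to 692 to 1061 in f/f SD and 756 to 1191 in Mef2c-cKO SD.

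**Figure D5:**
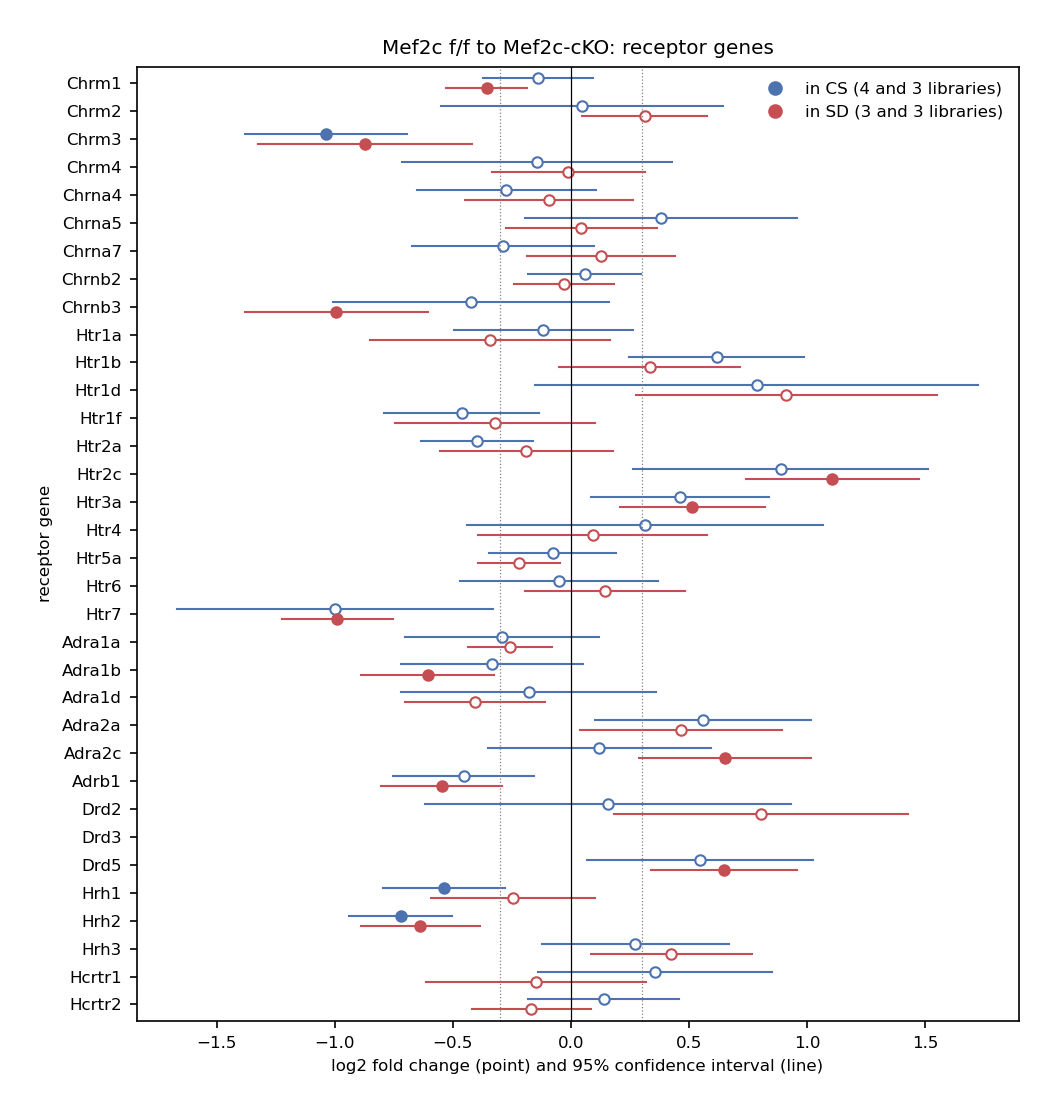
Log2 fold change (points) and 95% confidence interval (lines) of each tested receptor from Mef2c f/f to Mef2c-cKO in CS (blue) and in SD (red), grouped by transmitter family, with dotted lines at the fold threshold and filled points for called genes. Chrm3 and Hrh2 are filled in both sleep states, and Htr7 and Htr2c lie farthest from 0 on either side in SD among the better expressed receptors.

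Drd3 was the receptor with the lowest levels in floxed mice without Cre. It was at 0.124, 0.340, 0.351 and 0.256 rescaled CPM in f/f CS and at 0.0988, 0 and 0.0552 in f/f SD, where 0 counted reads leave room for up to 3, and at 2.10, 1.34 and 0.615 in Mef2c-cKO CS and 0.644, 0.921 and 1.01 in Mef2c-cKO SD. The ranges of f/f and Mef2c-cKO were apart in both sleep states, while WT CS ranged from 0.9998 to 3.47. Summed striatal markers were at 1365, 870 and 560 in the same Mef2c-cKO CS libraries, in that order, and at 749 to 1219 in f/f CS. In SD they were at 756 to 1191 in Mef2c-cKO and 692 to 1061 in f/f. Their part in the Drd3 difference was not tested. Drd3 did not pass the expression filter between these genotypes. With no filter it was called higher in Mef2c-cKO in CS (log2 fold change 1.199, adjusted p = 0.044) and in SD (1.29, adjusted p = 0.00237), values that depend on the added 0.5 CPM at these levels. Drd3 passed the filter and was called in CS without Mef2c-cKO CS replicate 8 (1.52, adjusted p = 0.0157). The same held in SD without Mef2c-cKO SD replicate 5 (1.41, adjusted p = 0.00962). Each is the lowest Mef2c-cKO library of its sleep state, and leaving it out let Drd3 pass through Mef2c-cKO alone. These fits are therefore no further support for a difference.

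Genes that act before and after the receptors were called in both directions, read here against the 24.6% of all genes called higher and 20.5% called lower from WT CS to SD. Of 22 genes that make, carry or degrade the transmitters, 11 could be tested from WT CS to SD, 2 were called higher and 2 lower, and the median was 0.097. Slc29a4 (0.56), which carries monoamines, and Th (1.11), which makes catecholamines, rose. Maoa (-0.41) and Hnmt (-0.59), which degrade monoamines and histamine, fell. Of 29 G protein subunits, phospholipases, RGS proteins, kinases and arrestins, 28 were tested, with 9 higher and 7 lower. The phospholipases Plcb1 (-0.69) and Plcb4 (-0.70), which act after Gq, and Rgs4 (-0.53) and Rgs7 (-0.88), which end G protein signals, fell, and Gnai2 (0.45), Rgs14 (0.56) and the dopamine-regulated phosphatase inhibitor Ppp1r1b (0.89) rose. Of 9 accessory proteins, Ly6h (1.41), which binds nicotinic receptors, and Caly (0.65), a protein of endocytic vesicles, rose, and Lypd6 (-0.47) fell. The calls of these lists, here and in the comparisons below, are given without the correction for GC content and length. Across 12444 genes the log2 fold change from WT CS to SD had a Spearman rho of 0.721 with GC content.

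From WT CS to RS these 3 lists had 1 gene higher and 1 lower of 11, 5 higher and 3 lower of 27, and 3 higher and 2 lower of 9, where 9.28% of all genes were higher and 8.22% lower. From WT SD to RS, from CS to SD in either floxed genotype and in the difference between those responses, 0 genes of the 3 lists were called. Between f/f and Mef2c-cKO in CS, Ache (0.78), which degrades acetylcholine, and Slc29a4 (0.95) were higher, and Plcb1, Plcb4, Rgs7 and Adrbk2 of the 28 transducers were lower, with Ly6h (0.68) higher among accessory proteins, where 3.17% of all genes were higher and 4.5% lower. In SD, Chat (1.001) and Slc5a7 (0.92), which make acetylcholine and take up choline, Slc29a4 (1.28) and Th (3.24) were higher and no tested gene of that list was lower. Th was at 0.733 to 1.197 rescaled CPM in f/f SD and at 9.79 to 16.8 in Mef2c-cKO SD. It passed the filter only through Mef2c-cKO SD, so a rise was the only large change it could show. Among transducers Gnai2 and Rgs14 were higher and Rgs7 lower, and among accessory proteins Caly and Ly6h were higher, where 9.1% of all genes were higher and 5.99% lower.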

How the data were processed

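Stranded mRNA libraries of 33 mouse frontal cortex samples in 7 groups were sequenced. The authors filtered reads with FASTQC and Trimmomatic, used STAR for alignment (mm10) and HTSeq for gene counts from unique alignments, and deposited CPM made with edgeR for 21565 genes. The gene annotation is not given in the sources used here. Of 711645 CPM values, 100% came out within 0.01 of whole reads, so read counts were recovered. Total reads ran from 18935045 to 249046089 per library, and intervals from reads cover counting error only.

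Groups follow the sample labels. The deposited CPM were rescaled by one median-of-ratios factor per library and transformed to log2 after adding 0.5, so a fold change is on the log2(CPM + 0.5) scale and understates changes of low genes. Each comparison was fitted over all genes with limma 3.58.1 (lmFit, eBayes with a trend, R 4.3.3) on the compared groups alone. A gene was tested where every replicate of one compared group reached 1 CPM. Calls required an adjusted p (Benjamini-Hochberg) no greater than 0.05 together with a log2 fold change of 0.3 or more in size, without the fold threshold for interactions. Ranges of libraries were compared without a test.

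All receptor rows with a mean of at least 1 CPM were named, with genes of the pathway lists (transmitter handling, transducers, accessory proteins) called in a comparison and defining markers of cell types. One receptor and one gene of the transmitter handling list are not reported here and enter no count of receptors or of that list. The receptors and lists were chosen with earlier results of these data known. The alternatives were other scaling, pseudocounts of 0.1 and 1, other filters, array quality weights, correction for GC content and transcript length (splines with 5 and 4 degrees of freedom), edgeR 4.0.16 and DESeq2 1.42.0 on the recovered reads, no fold threshold, all 7 groups in one fit, a block for the replicate number, and leaving out single libraries. From WT CS to SD edgeR called 5609 genes on the recovered reads and limma 5826. The fits were tested on simulated counts with known fold changes. These counts had the same dispersion setting for every gene and no trend with GC content, so they do not bear on that trend. Lengths and GC content were taken from GENCODE M21 (GRCm38) by symbol for 19231 genes and by synonym for 241, and 2062 were not found. Promoter sequences were read from RefSeq (GRCm38.p6), and figures were drawn with matplotlib 3.10.9. No per-sample column of the table was left out.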

Additional observations from a re-analysis of the deposited data

Results flagged for a closer look

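Of 136 receptor groups of 4 to 7 libraries, 11 held a library whose gap to the next was large for the range of its group (Dixon's test at the 95% level). Chance alone gives about 1 in 20. WT CS replicate 2 held 6 of the 11, with the highest Htr1f (189 rescaled CPM), Htr2a (124), Chrm2 (112) and Htr1a (17.4) and the lowest Chrm4 (6.47) and Chrnb2 (24.1). It also has the lowest scaling factor, 0.716. The 17 calls from WT CS to SD numbered 15 without it, with Hrh2 and Chrnb2 lost. The others were Chrm2 in Mef2c f/f CS replicate 3 (100.3), Htr4 in WT SD replicate 2 (lowest, 7.08), Drd3 (highest, 9.91) and Chrna5 (lowest, 0.949) in WT RS replicate 4, and Hrh2 in WT RS replicate 1 (26.7).

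The SD response differed between Mef2c f/f and WT mice by the interaction test in limma, as f/f minus WT on the log2 scale, for Chrm3 (0.757), Htr1f (0.845), Htr2a (0.611), Adra2c (-0.887), Htr7 (0.528), Hcrtr2 (1.05) and Chrnb3 (0.965). Chrnb3 passed the filter only through the f/f groups. Hcrtr2 was lower in SD than in CS in WT (-0.47, adjusted p = 0.00803). In f/f mice it was higher in all 3 SD libraries than in the 4 CS libraries (0.57, adjusted p = 0.103). After correction for GC content and length its WT value was -0.10 (adjusted p = 0.367). Adra2c, Hcrtr2, Htr1f and Htr2a then lost their calls in the interaction test. Floxed and WT libraries differ in depth and listed sums, and these cannot be told apart from genotype.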

How the results depend on the processing

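Counts of receptors called depended on the processing as follows. With correction for GC content and length, 9 were called from WT CS to SD (17 as reported), 3 from WT CS to RS (5), 6 between Mef2c f/f and Mef2c-cKO in CS (3) and 3 in the difference of SD responses between f/f and WT (7), and Htr6 from WT CS to SD changed sign to -0.131. From WT CS to RS 9 were called with CPM as deposited, 1 with no filter on low values, 10 with DESeq2 and 12 with all 7 groups in one fit. From f/f CS to SD 8 were called with array quality weights and 2 with DESeq2, where limma called 0, and from Mef2c-cKO CS to SD 1 with array weights. Between f/f and Mef2c-cKO in CS 5 were called with quantile normalization, 5 with CPM of at least 5, 18 with array weights, 9 with DESeq2 and 8 in one fit of all groups, and in SD 6 in that fit (11). The difference between f/f and WT had 16 calls with array weights. Leaving out 1 library gave 15 to 19 calls from WT CS to SD, 0 to 11 from WT CS to RS, 0 to 2 from f/f CS to SD, 2 to 5 and 5 to 14 between f/f and Mef2c-cKO in CS and SD, and 2 to 9 for f/f against WT, and 0 throughout for WT SD to RS, Mef2c-cKO CS to SD and Mef2c-cKO against f/f. Over single receptors called as reported, 402 of these values kept their call and 111 lost it, all in the same direction. Over the alternatives that kept all libraries, the genes called of all tested ranged from 287 to 6907 from WT CS to SD (5826 as reported), 385 to 4709 from WT CS to RS (2232), 0 to 100 from WT SD to RS (3), 0 to 1750 from f/f CS to SD (5), 1 to 291 from Mef2c-cKO CS to SD (3), 857 to 3402 and 690 to 2972 between f/f and Mef2c-cKO in CS (973) and SD (1927), 0 to 7486 for f/f against WT (1983) and 1 to 315 for Mef2c-cKO against f/f (1). Calls over all genes thus moved with the processing too, and the receptor counts above are not a result about receptors. The cause of these differences was not tested.

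The replicate numbers were not taken to pair the libraries. Same-numbered libraries had correlations of their deviations from -0.329 to 0.554 (WT CS and SD), 0.0681 to 0.666 (CS and RS), -0.726 to 0.333 (SD and RS), 0.0467 to 0.265 (f/f) and 0.0689 to 0.150 (Mef2c-cKO). Not every pair was over 0.1 in any of these. The median was 0.385 between WT CS and RS (-0.083 for pairs with other numbers) and 0.174 in f/f (-0.141), which is a hint of pairing from the data, not from the design. With the replicate block 4 receptors were called from WT CS to SD, 10 from WT CS to RS and 0 for f/f against WT. With the block and the correction for GC content and length these were 5, 3 and 0, and Hrh3 (-0.0045) and Htr6 (-0.184) from WT CS to SD and Adra2c (0.048) for f/f against WT changed sign. The block fit rests on the numbers that both groups hold. No paired analysis was possible between f/f and Mef2c-cKO because their libraries share fewer than 2 numbers. The depth limits low receptors most, since Hcrtr1, Chrnb3, Htr6 and Drd5 lie near 1 CPM.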
